A study of Drosophila melanogaster with 9 samples.

Results

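The genes described here encode the receptors through which the fly brain reads its fast transmitters: acetylcholine, GABA, glutamate and histamine. They were chosen by FlyBase symbol, with no threshold on their values, and number 33 of the 17489 genes counted in each library. There are 10 nicotinic and 3 muscarinic acetylcholine receptor genes, 3 GABA-gated channel subunits and 3 metabotropic GABA receptors. Glutamate has 1 glutamate-gated chloride channel, 8 ionotropic receptors and 1 metabotropic receptor, and histamine has 2 histamine-gated chloride channels. The list also holds 2 pH-sensitive chloride channels, which belong to the same cys-loop family but are not opened by these transmitters.

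The RNA came from central brains of male w1118CS flies, a white-eyed laboratory strain, at 7 days of age, in pools of 10 brains. The sample names carry the prefix CD, which the study uses for its control diet. Refed flies were kept on water alone from 5 PM of the day before and given 400 mM D-glucose for 2 h from 9 AM, when the lights came on. Sated flies were kept from food only for the last 1 h before dissection. Fasted flies, whose food was also removed at 5 PM, went without food for 20 h, with water. By these times the refed meal began before 20 h without food had passed. Length of fast and time of day may thus differ between groups and cannot be told apart from feeding. Each group has 3 libraries here, where the protocol speaks of 4 replicates.

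In insects acetylcholine is the main fast excitatory transmitter of the central brain, and it opens nicotinic receptors, which are pentameric cation channels. GABA and glutamate both inhibit central neurons by opening chloride channels, Rdl and GluClalpha, and glutamate also acts on cation channels of the AMPA, kainate and NMDA types. Histamine is the transmitter of the photoreceptors, whose signal the ort channel receives in the optic lobe. The muscarinic, GABA-B and metabotropic glutamate receptors act more slowly, through G proteins.

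Libraries held 4957138 to 7897838 counts on the genes' own strand. Between 9.59% and 28.5% of the strand-assigned counts fell on the opposite strand, with the highest shares in sated replicate 2 (20.6%) and in fasted replicates 1 and 2 (24.6% and 28.5%). Neuronal markers (elav, nSyb, Syt1, brp) summed to 6194 to 7195 CPM (counts scaled to library size) in every library, with the lowest sum in refed replicate 3. Photoreceptor markers summed to 1495 to 1719 CPM in refed, 2004 to 2215 in sated and 1281 to 1789 in fasted brains, all labelled as central brain. Of these sums norpA alone gave 661 to 891 CPM, while ninaE ran from 2.76 to 292 CPM across libraries.

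Of the 33 receptor genes, 30 had enough reads to be tested, with 13 to 11237 counts per library and a median of 1362. Levels of different genes are compared as CPM per kilobase of summed exons, averaged over the 9 libraries. They ran over a wide range, and the order followed no single transmitter. The nicotinic subunit nAChRbeta1 came first at 202 ± 7.0 CPM per kilobase (SD, n = 9), before the GABA channel Rdl (154 ± 13.5), nAChRalpha5 (103 ± 10.9) and GluClalpha (101 ± 5.6). The neighbours nAChRalpha5 and GluClalpha lay closer together than their spread. Per kilobase of the longest coding sequence, which leaves out long untranslated exons, Rdl came first at 758, followed by GluClalpha (480), nAChRalpha6 (430), nAChRbeta1 (385) and nAChRalpha5 (384). The same 5 genes thus headed both orders, while nAChRalpha1 took rank 6 by coding length and rank 11 by exon length.

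**Figure D1:**
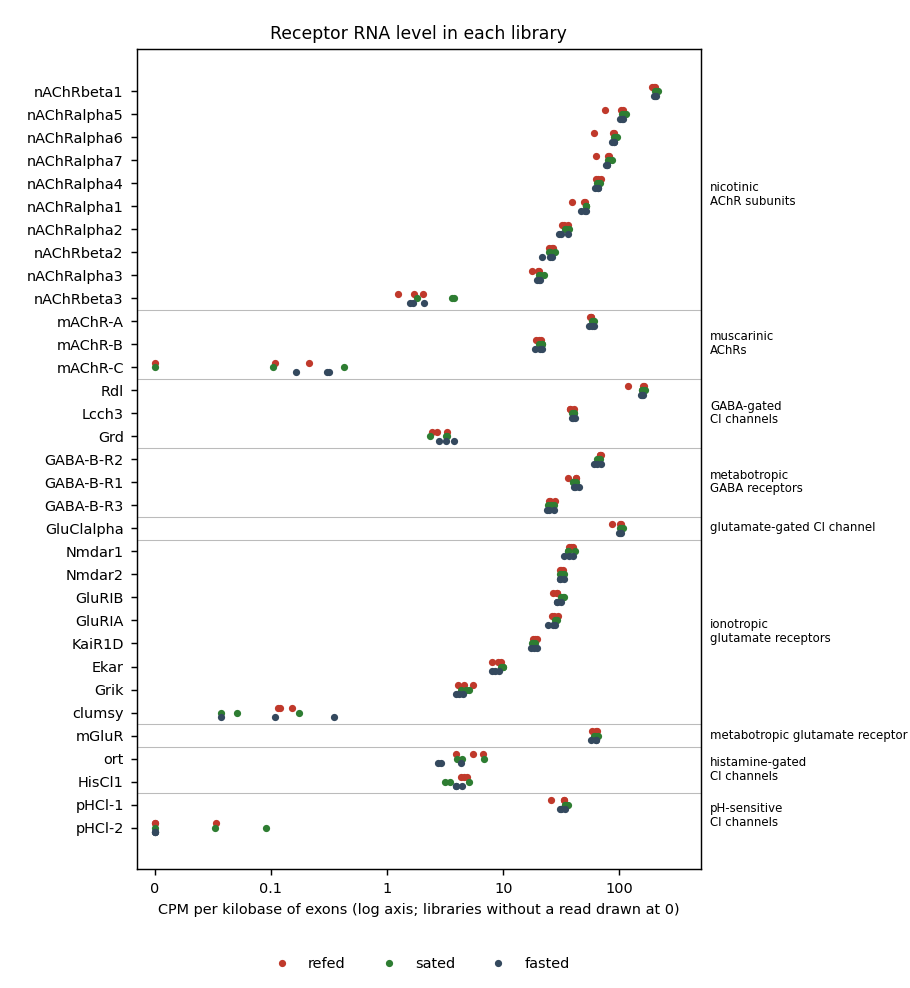
RNA level of the 33 receptor genes in each of the 9 libraries, as CPM per kilobase of exons on a log axis, grouped by receptor class. Most genes with levels above 10 show 9 points almost on top of each other, while nAChRbeta3 (average 2.17) and ort (4.58) scatter and mAChR-C, clumsy and pHCl-2 lie at or near 0.

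Among the nicotinic subunits, counted per kilobase of exons, nAChRbeta1 made up 30.4% ± 1.1 of the summed level per kilobase (SD, n = 9), nAChRalpha5 15.4%, nAChRalpha6 13.0%, nAChRalpha7 11.7% and nAChRalpha4 9.83%. nAChRalpha1, nAChRalpha2 and nAChRbeta2, which lie together on chromosome 3R between 24393896 and 24515106 (BDGP6), contributed 7.38%, 5.10% and 3.83%. nAChRalpha3 contributed 3.04%. Per kilobase of coding sequence nAChRalpha6 led the class with 19.4%, before nAChRbeta1 (17.4%) and nAChRalpha5 (17.3%). nAChRbeta1, the main beta subunit, stood at 603, 591 and 565 CPM in refed, 600, 643 and 610 CPM in sated and 600, 592 and 615 CPM in fasted brains. The lowest subunit, nAChRbeta3, held 0.323% of the class, with 13 to 45 counts in a library. It is the shortest nicotinic gene and shares exon sequence with Ets21C on the other strand, and with unstranded counting it was listed at 0 and could not be tested.

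**Figure D2:**
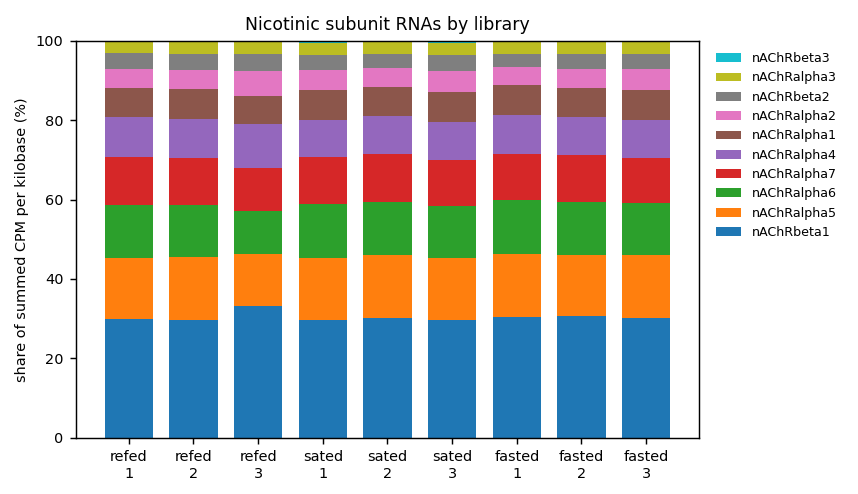
Share of each nicotinic subunit in the summed CPM per kilobase of the 10 subunits, one bar per library. The bars look alike except in refed replicate 3, which holds the largest share of nAChRbeta1 (33.2%) and the smallest of nAChRalpha6 (10.6%), below its share of nAChRalpha4 (11.1%).

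The muscarinic class was carried by mAChR-A, which couples to Gq, with 73.6% ± 0.77 of its level per kilobase (SD, n = 9). mAChR-A stood at 311, 311 and 304 CPM in refed, 319, 316 and 331 CPM in sated and 297, 314 and 325 CPM in fasted brains. mAChR-B, which couples to Gi, held 26.2%. mAChR-C had 2, 1 and 0 counts in refed, 0, 3 and 1 counts in sated and 2, 1 and 3 counts in fasted libraries, against 109 on its opposite strand. It was near the limit of detection in all 9 libraries, where 3 counts amount to 0.383 to 0.601 CPM, and no fold change is given.

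Rdl, the subunit that dieldrin resistance made known, accounted for 78.2% ± 2.0 of the GABA-gated class (SD, n = 9). It stood at 1458, 1431 and 1075 CPM in refed, 1398, 1492 and 1393 CPM in sated and 1367, 1405 and 1429 CPM in fasted brains, so that refed replicate 3 lay below every other library. Lcch3, a beta-like subunit that shares exon sequence with Ranbp16 on the other strand, held 20.2%, but 6.2% by coding length and 11.3% with unstranded counts. Grd, the least abundant of the class, stood at 10.9, 9.86 and 13.3 CPM in refed, 13.4, 9.61 and 13.0 CPM in sated and 13.1, 15.2 and 11.4 CPM in fasted brains, and the groups overlapped. GABA-B-R2, which joins GABA-B-R1 in the functional GABA-B receptor, was the highest metabotropic gene (49.8% of the class), before GABA-B-R1 (30.9%) and GABA-B-R3 (19.3%). By coding length the order turned, with 43.8% for GABA-B-R1 and 34.2% for GABA-B-R2. GABA-B-R2 stood at 279, 272 and 269 CPM in refed, 265, 257 and 271 CPM in sated and 239, 254 and 275 CPM in fasted brains. GABA-B-R3 stood at 174, 179 and 197 CPM in refed, 172, 192 and 182 CPM in sated and 167, 192 and 175 CPM in fasted brains. The groups overlapped for both.

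GluClalpha, the target of ivermectin and an inhibitory receptor, stood at 680, 676 and 577 CPM in refed, 671, 712 and 681 CPM in sated and 655, 682 and 671 CPM in fasted brains. The excitatory glutamate receptors were lower per kilobase. Nmdar1 and Nmdar2, the NMDA receptor subunits, held 23.6% and 19.9% of the ionotropic class, the AMPA-type GluRIB and GluRIA 19.0% and 17.3%, and the kainate-type KaiR1D 11.6%. By coding length Nmdar2 (29.1%) and GluRIB (22.7%) stood above Nmdar1 (19.5%). Nmdar1 stood at 154, 160 and 165 CPM in refed, 149, 151 and 174 CPM in sated and 153, 140 and 167 CPM in fasted brains, with overlapping groups. KaiR1D and Grik, another kainate-type gene, are neighbours on 3R (20860187 to 20866231 and 20901956 to 20908263) and differed in level (18.5 and 4.53 CPM per kilobase). At the bottom, clumsy had 4, 3 and 3 counts in refed, 4, 1 and 1 counts in sated and 2, 6 and 1 counts in fasted libraries, against 34 on its opposite strand. mGluR, the only metabotropic glutamate receptor of the list, stood at 400, 407 and 370 CPM in refed, 394, 413 and 385 CPM in sated and 396, 359 and 402 CPM in fasted brains.

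Both histamine channels were scarce and nearly equal, at 4.58 ± 1.46 CPM per kilobase for ort and 4.20 ± 0.61 for HisCl1 (SD, n = 9). HisCl1 shares exon sequence with Sbf on the other strand and had 0.573 opposite-strand reads for each of its own, the highest ratio of the 30 tested genes. It stood at 8.04, 8.55 and 9.05 CPM in refed, 6.57, 5.94 and 9.45 CPM in sated and 7.39, 7.41 and 8.32 CPM in fasted brains, with overlapping groups. Of the pH-sensitive channels, pHCl-1 was well expressed (32.6 CPM per kilobase), and pHCl-2, known as hodor and studied in gut and renal tubules, had 1, 0 and 0 counts in refed, 0, 2 and 1 counts in sated and none in fasted libraries.

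No receptor gene passed the test in any feeding comparison. edgeR's quasi-likelihood test with Benjamini-Hochberg adjustment over all genes called 0 of 30 receptors at an adjusted p under 0.05 in refed against fasted, in sated against fasted and in refed against sated brains, where 0.111%, 0.268% and 0.179% of all tested genes were called. At an unadjusted p under 0.05 the receptors numbered 1, 5 and 2, against 6.77%, 9.72% and 11.5% of all genes. DESeq2 also called 0 in each comparison, and none of the 51 fits over all settings called one, with 0.0937 as the smallest adjusted p. In pooled brains, fewer cells of a type and less RNA per cell cannot be told apart.

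The intervals around most receptors were narrow. The 95% interval of the fold change lay wholly within 1.5-fold either way for 27, 28 and 27 of the 30 genes in refed against fasted, sated against fasted and refed against sated brains (90.0%, 93.3% and 90.0%, against 68.2%, 66.5% and 69.0% of all genes tested). It lay within 1.2-fold for 19, 23 and 16 of them. The genes whose interval reached past 1.5-fold were nAChRbeta3 and ort in all 3 comparisons, Grd in refed against fasted and HisCl1 in refed against sated brains, all 4 of them with at most 105 counts in any library. Spread within groups was also low. The median coefficient of variation was 6.34% among refed, 3.55% among sated and 5.79% among fasted libraries, against 8.35%, 8.22% and 8.35% for all genes. Neither comparison with all genes was matched for read counts. The tested receptors had a median of 1362 counts per library.

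**Figure D3:**
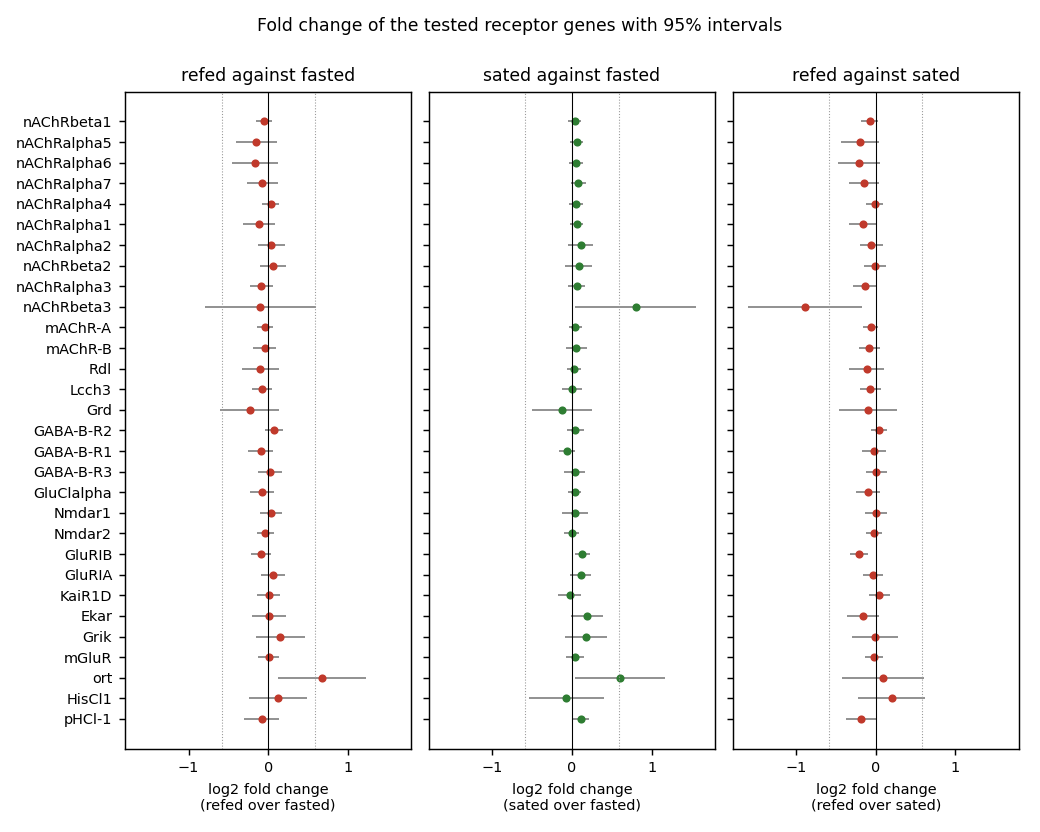
Log2 fold changes (points) with 95% intervals (lines) of the 30 tested receptor genes in the 3 comparisons; dotted lines mark 1.5-fold either way. Most intervals cross 0 and stay within the dotted lines, while those of nAChRbeta3 and ort reach past them in every panel.

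After 2 h on glucose, receptor levels in refed brains stood close to those of fasted brains. The median log2 fold change over the 30 genes was -0.04, beside -0.01 for all genes, with 13 above 0 and 17 below. With 1 library left out they ran from 8 above and 22 below (without fasted replicate 1) to 17 above and 13 below (without refed replicate 3), and were 6 above and 24 below without the 3 libraries with the most opposite-strand reads. By transmitter the medians were -0.08 for the nicotinic subunits, -0.04 for the muscarinic receptors, -0.10 for the GABA channels, 0.03 for the GABA-B receptors and 0.01 for the ionotropic glutamate receptors. GluClalpha was at -0.07 (95% interval -0.22 to 0.08) and mGluR at 0.01 (-0.12 to 0.14). No receptor had all refed libraries above or all below the fasted ones, against 7.69% and 4.37% of all genes.

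The smallest p in this comparison belonged to ort (3R, 19659748 to 19663672), the histamine channel of the neurons that receive photoreceptor input. It stood at 11.8, 8.42 and 14.4 CPM in refed, 8.66, 14.7 and 9.45 CPM in sated and 5.91, 9.41 and 6.27 CPM in fasted brains. Its log2 fold change was 0.68 ± 0.25 (SE) in refed against fasted (adjusted p = 0.705) and 0.60 ± 0.26 in sated against fasted brains (adjusted p = 0.486), and the groups overlapped in both. In each group the library with the highest ort also had the most ninaE and Rh3, rhodopsins of the photoreceptors. These were the only 2 of 12 photoreceptor markers to do so in all 3 groups. Taken by group, 3, 8 and 5 of the 12 were highest there in refed, sated and fasted brains, and 4, 3 and 6 were lowest. Arr2 and ninaC were lowest in those same 3 libraries, and Arr1, trp, trpl and norpA were also lowest in fasted replicate 2. ninaE stood at 65.3, 2.76 and 72.0 CPM in refed, 5.08, 292 and 18.6 CPM in sated and 7.94, 108 and 12.4 CPM in fasted brains. The markers thus moved in both directions beside ort, and the part of visual system tissue in its values was not tested.

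In sated against fasted brains the receptors leaned slightly upward without a call. The median log2 fold change was 0.05, beside 0.00 for all genes, and 25 of the 30 genes were above 0, including all 10 nicotinic subunits (median 0.06). Neuronal markers stood at a similar value (median 0.05 over 4 genes, 3 above 0), and all 9 tested photoreceptor markers were above 0 (median 0.63). Their part in the lean was not tested. The ionotropic glutamate receptors had a median of 0.11, the muscarinic receptors 0.05, the GABA-B receptors 0.03 and the GABA channels 0.00. GluClalpha and mGluR stood at 0.04 each. In nAChRalpha7, GluRIB, Ekar and pHCl-1 every sated library lay above every fasted one, and no receptor lay wholly below, against 7.69% and 6.71% of all genes. Without the 3 libraries with the most opposite-strand reads, 17 genes were above 0 and 13 below, with a median of 0.01. That fit kept 2 sated libraries and 1 fasted library, and the part of opposite-strand reads in the lean was not tested further.

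GluRIB (3L, 9251978 to 9288522), an AMPA-type subunit, had the smallest p among the receptors in this comparison and in refed against sated brains. It stood at 209, 210 and 191 CPM in refed, 228, 242 and 234 CPM in sated and 208, 207 and 226 CPM in fasted brains. Every sated library was above all others. The log2 fold change was 0.13 ± 0.04 (SE) in sated against fasted (adjusted p = 0.365), -0.21 ± 0.05 in refed against sated (adjusted p = 0.153) and -0.09 ± 0.05 in refed against fasted brains (adjusted p = 0.764). The sated libraries enter both of the first 2 comparisons, so these are not independent. Without the 3 libraries named above the sated against fasted value was 0.04, and the refed against sated value was -0.19.

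pHCl-1 (3L, 15848578 to 15899029) stood at 280, 279 and 214 CPM in refed, 287, 301 and 286 CPM in sated and 262, 258 and 286 CPM in fasted brains. The lowest sated value (285.8 CPM) was just above the highest fasted one (285.7 CPM), and refed replicate 3 was far below the rest. Its log2 fold change in sated against fasted brains was 0.11 ± 0.04 (SE, adjusted p = 0.453), and 0.01 without the 3 libraries. Ekar (4, 636131 to 646556), a kainate-type receptor known from photoreceptors, stood at 26.6, 23.7 and 28.2 CPM in refed, 29.4, 28.6 and 29.5 CPM in sated and 23.6, 25.4 and 27.5 CPM in fasted brains. Its log2 fold change in sated against fasted brains was 0.19 ± 0.09 (SE, adjusted p = 0.509), and 0.10 without the 3 libraries.

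nAChRbeta3 (2L, 545129 to 547096) had the largest fold changes of any receptor in the comparisons with sated brains, and the fewest reads of those tested. It stood at 2.60, 3.16 and 1.92 CPM in refed, 5.52, 2.79 and 5.75 CPM in sated and 2.40, 3.20 and 2.56 CPM in fasted brains. Sated replicates 1 and 3 were high, and sated replicate 2 lay among the refed and fasted values. The log2 fold change was 0.80 ± 0.34 (SE) in sated against fasted (adjusted p = 0.484) and -0.90 ± 0.32 in refed against sated brains (adjusted p = 0.322). Opposite-strand reads amounted to 0.307 of its own, and sated replicate 2 is the sated library with the most of them. Their part in its low value was not tested.

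**Figure D4:**
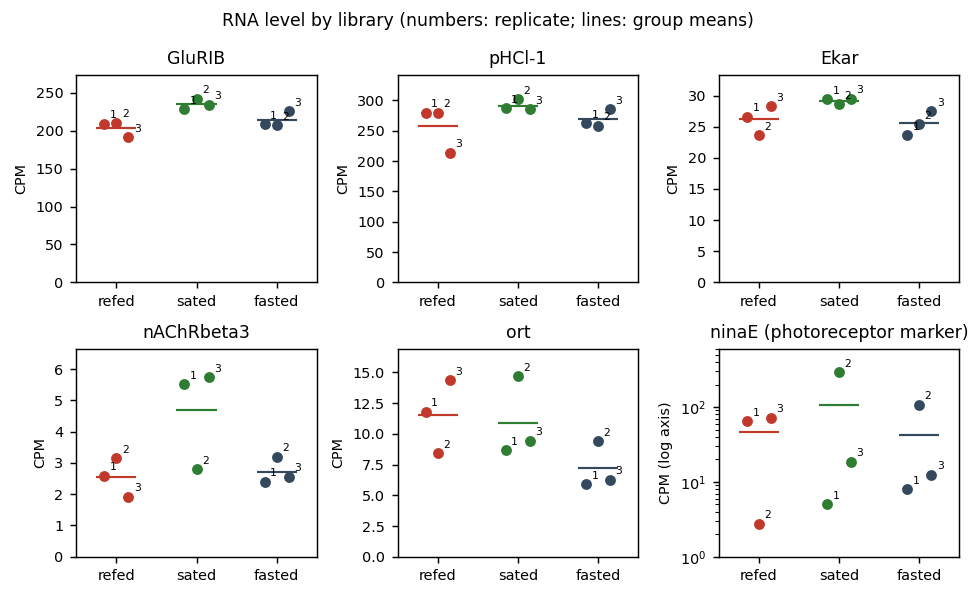
CPM of GluRIB, pHCl-1, Ekar, nAChRbeta3 and ort, and of the photoreceptor marker ninaE (log axis), in each library, with replicate numbers beside the points and lines at the group means. GluRIB is highest in the 3 sated libraries, and nAChRbeta3 is high in 2 of 3 sated libraries. The highest ort in each group sits in the library with the highest ninaE. Of 12 photoreceptor markers, 3, 8 and 5 were highest in that library in refed, sated and fasted brains, and 4, 3 and 6 were lowest.

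In refed against sated brains 24 of the 30 receptors were below 0, with a median log2 fold change of -0.07, beside 0.00 for all genes. All 4 neuronal markers (median -0.05) and all 11 tested photoreceptor markers (median -0.54) were also below 0, and their part in the shift was not tested. Medians were -0.14 for the 10 nicotinic subunits, all below 0, -0.10 for the GABA channels, -0.08 for the muscarinic receptors, -0.02 for the ionotropic glutamate receptors and 0.01 for the GABA-B receptors. In nAChRalpha1, mAChR-A, GluRIB, Ekar and pHCl-1 every refed library lay below every sated one, and no receptor lay wholly above, against 8.08% and 10.1% of all genes. Without refed replicate 3 the count below 0 was 21 and the median -0.04.

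Many of the long receptor genes were low in refed replicate 3. Neuronal markers were low there too, with a sum of 6194 CPM, against 7012 and 6958 CPM in refed replicates 1 and 2. Of the 30 receptors, 11 were lower there by more than 0.2 on the log2 scale than the mean of the other refed libraries (36.7%), against 19.0% of all genes. The log2 difference was -0.56 for nAChRalpha6 (93 kb from start to end), -0.49 for nAChRalpha5 (54 kb), -0.43 for Rdl (36 kb), -0.39 for pHCl-1 (50 kb), -0.35 for nAChRalpha7 (21 kb) and -0.34 for nAChRalpha1 (63 kb). Among receptors that span over 10 kb, 9 of 20 were lower by that margin (45.0%, against 19.3% of all genes of that length). Long genes as a whole were also shifted down in this library. Of all genes over 10 kb, 331 were lower and 114 higher by that margin (median -0.04). Of the other genes 1300 were lower and 1319 higher (median 0.02). In the other libraries, each set against the rest of its group, 6.01% to 10.7% of all genes over 10 kb were lower. The part of gene length in the receptor values was not tested. Other long receptor genes were not lower by that margin, with -0.09 for nAChRalpha4 (81 kb) and 0.11 for mAChR-B (28 kb). The scarce Grd (16 kb) was higher in this library, at 0.36. The shorter nAChRbeta1, nAChRalpha2 and Lcch3 were at -0.08, 0.15 and 0.11, and ort at 0.51. The chi-square of the counts per degree of freedom was 8.16 and 7.69 against the other refed libraries, which differed from each other by 2.21. Fasted replicates 2 and 3 differed by nearly as much (7.51), and the other pairs within a group by 2.90 to 4.73. Without this library the refed against fasted median of the receptors was 0.01, with 17 above 0 and 13 below, and still none was called.

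**Figure D5:**
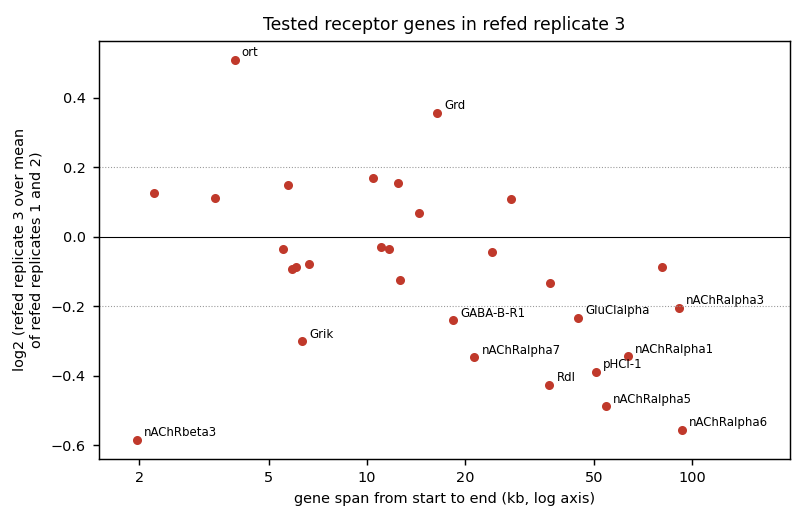
Log2 ratio of each tested receptor in refed replicate 3 over the mean of refed replicates 1 and 2, against the distance from gene start to end (kb, log axis); dotted lines mark 0.2 either way. Most labelled genes below the lower line span 18 kb or more, with nAChRalpha6 lowest among them at -0.56. The short, scarce nAChRbeta3 and Grik are also below that line, and Grd and ort are above the upper line.

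Of 16 genes that make, load and clear the transmitters none was called in any comparison. Of all tested genes 0.111%, 0.268% and 0.179% were called in refed against fasted, sated against fasted and refed against sated brains, so lists this short would seldom hold a call. Of these, 9, 14 and 6 were above 0 in refed against fasted, sated against fasted and refed against sated brains, with median log2 fold changes of 0.03, 0.04 and -0.03. The lowest values of each were Gat, the GABA transporter of glia, at -0.22 in refed against fasted (adjusted p = 0.705) and -0.42 in refed against sated brains (adjusted p = 0.0603), and ChT, the choline transporter, at -0.03 in sated against fasted brains (adjusted p = 0.89). The highest were VGAT, which loads GABA into vesicles, at 0.14 in refed against fasted (adjusted p = 0.705), tan, which frees recycled histamine, at 0.49 in sated against fasted (adjusted p = 0.486), and Gad1, which makes GABA, at 0.07 in refed against sated brains (adjusted p = 0.604). Of 5 genes for receptor chaperones, scaffolds and auxiliary subunits none was called, and fold changes ran from -0.11 for the scaffold dlg1 in refed against sated brains (adjusted p = 0.535) to 0.08 for Hasp, a synaptic matrix protein, in refed against fasted brains (adjusted p = 0.780).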

How the data were processed

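The authors aligned reads of ribosomal-RNA-depleted libraries with STAR to BDGP6 and deposited whole, unnormalized counts per gene for both strands and unstranded; labels also name SAMtools 1.4, HTSeq and DESeq2 1.18.0. The own-strand counts were used here, and rows naming no gene were left out of library sizes (42.5% to 60.3% of each file's total). Each pair of groups was fitted on its own 6 libraries in R 4.3.3 with edgeR 4.0.16 (filterByExpr, TMM, glmQLFit, glmQLFTest) and Benjamini-Hochberg adjustment over all genes at 0.05. Standard errors came from the fit's information matrix, and 95% intervals from the moderated t distribution. CPM used TMM over 9 libraries. Exon lengths, coding lengths and positions came from Ensembl release 115 (BDGP6), which holds 17215 of the identifiers. DESeq2 1.42.0 was an alternative, and the procedures were tested on simulated data. Replicates are separate pools of brains. The members and lists were chosen with earlier results of these data known. Named with values in every library are the 2 smallest p per comparison and the highest and lowest gene of each class; other receptors at an unadjusted p under 0.05 were added after their values were seen. VAChT, ric-3, para and wupA were not analysed here. The sources used here name no molecular identifiers, so reads may share a molecule and limits from counts cover counting error only.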

Additional observations from a re-analysis of the deposited data

How the results depend on the processing

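No receptor gene was called under DESeq2, RLE or upper-quartile normalization, no filter, all 9 samples in one fit, at least 10 counts in every sample, the replicate block, unstranded counts, robust empirical Bayes, without the 3 libraries with most opposite-strand reads, or with any library left out. The 9 receptor fold changes that were among the 2 smallest p of a comparison or had an unadjusted p under 0.05 did not change sign in any setting that could test them; nAChRbeta3 could not be tested with unstranded counts. Fold changes of other named genes were not followed across settings. The count over all genes did move. In refed against fasted brains it was 10, and 28 with DESeq2, 31 without a filter, 20 with unstranded counts, 6 without the 3 libraries and 2 to 264 with 1 library left out (264 without fasted replicate 3). In sated against fasted brains it was 24, and 110 with DESeq2, 75 without a filter, 55 with unstranded counts, 65 with robust empirical Bayes, 4 without the 3 libraries and 5 to 30 with 1 library left out. In refed against sated brains it was 16, and 51 with DESeq2, 25 with upper-quartile normalization, 121 without a filter, 55 with all 9 samples in one fit, 7 with at least 10 counts in every sample, 41 with unstranded counts, 34 with robust empirical Bayes and 2 to 75 with 1 library left out (75 without refed replicate 3). The causes were not tested. The labels do not say that replicate numbers pair the libraries. Same-numbered deviations correlated at -0.06 to 0.29, and not every pair was over 0.1. Sated and fasted brains had the highest values, at 0.28 for replicate 2 and 0.29 for replicate 3. Differently numbered libraries were not compared in this way, so whether the numbers pair libraries was not settled. With the replicate block the counts over all genes were 6, 72 and 11. Fits without the 3 libraries leave 1 fasted library, which is assumed to vary like the others. The intervals of nAChRbeta3, ort, HisCl1 and Grd, all with few counts, reach past 1.5-fold, and depth leaves mAChR-C, clumsy and pHCl-2 untested.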

Other observations

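Receptors for dopamine, octopamine, tyramine and serotonin, which modulate the circuits that the fast transmitters drive, were also not called in any comparison (0 of 17 each). Of all tested genes 0.111%, 0.268% and 0.179% were called in refed against fasted, sated against fasted and refed against sated brains. In refed against sated brains 15 of the 17 were below 0, with a median log2 fold change of -0.10, beside -0.07 for the fast receptors. The lowest and the highest were TyrRII at -0.27 (adjusted p = 0.791) and 5-HT2A at 0.04 (adjusted p = 0.913). The smallest p belonged to 5-HT1A, at -0.23 ± 0.05 (SE, adjusted p = 0.0803). At an unadjusted p under 0.05 there were 4 of the 17, all below 0, against 11.5% of all genes. In sated against fasted brains the highest was Octbeta2R, an octopamine receptor that raises cyclic AMP, at 0.24 ± 0.05 (SE, adjusted p = 0.104), and the lowest was Oct-TyrR at -0.16 (adjusted p = 0.555). In refed against fasted brains 13 were below 0, and Oct-TyrR was again lowest at -0.31 (adjusted p = 0.514).

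Of 9 further genes of the cys-loop and muscle-type glutamate receptor families, 4, 4 and 3 had enough reads to be tested. None was called, against 0.111%, 0.268% and 0.179% of all tested genes in the 3 comparisons. GluRIIE, a subunit of the neuromuscular glutamate receptor, averaged 1.19 CPM in refed and 3.57 CPM in fasted brains (log2 fold change -1.52, adjusted p = 0.705). In refed against fasted brains the other 3 tested genes were above 0, among them the muscle-type GluRIIA at 0.14 (adjusted p = 0.782). Muscle markers summed to 272 CPM in fasted replicate 2 and to 19.1 to 75.2 CPM in the other 8 libraries. The part of muscle tissue in the GluRIIE values was not tested.

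Among the photoreceptor markers Arr1, an arrestin, and trpl, a channel of the light response, were lower in refed than in sated brains, with log2 fold changes of -0.52 (adjusted p = 0.0477) and -0.58 (adjusted p = 0.0473). Neither histamine channel was called in that comparison, with 0.09 ± 0.23 for ort (adjusted p = 0.908) and 0.20 ± 0.19 for HisCl1 (SE, adjusted p = 0.733). Fat body markers summed to 998 to 1458 CPM in refed, 1712 to 2386 CPM in sated and 1238 to 1485 CPM in fasted brains, nearly all of it apolpp, with Lsp2 and Fbp2 at or near 0. Hemocyte markers summed to 164 to 261 CPM in refed, 187 to 353 CPM in sated and 155 to 266 CPM in fasted brains, and glial markers to 1872 to 2187 CPM in all libraries.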
